A study of Mus musculus with 141 samples.

Results

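Cytokine receptors of the haematopoietic type carry no kinase of their own. Janus kinases (JAK) bound to their tails phosphorylate STAT transcription factors, which enter the nucleus and switch on target genes, and among these targets are the SOCS proteins and CISH, which dampen the same receptors. In basophils and mast cells this route is known for relaying the cytokines IL-3, IL-4, IL-9 and thymic stromal lymphopoietin, and in neutrophil precursors for relaying granulocyte colony-stimulating factor.

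The values below describe 10 genes of this route, chosen by name and matched to the Ensembl identifiers of the count table. They are the kinases Jak1 and Jak2, the transcription factors Stat3, Stat5a, Stat5b and Stat6, and the inhibitors Socs1, Socs2, Socs3 and Cish. All 10 were found among the 46078 gene rows, and 9 of them reached 1 CPM (reads of the gene scaled to a total of 1000000 nuclear-encoded counts) in at least 1 population, Socs3 being the exception.

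Single-cell RNA sequencing covered 94 BMCP, a sorted population of basophil and mast cell precursors, and 47 GMP, a sorted population of granulocyte and monocyte precursors, from the bone marrow of 3 female C57BL/6 mice whose age the sources used here do not give. BMCP were gated for high integrin beta7 and high CD16/32 among live Lin-, cKit+, Sca1- cells. GMP were gated for CD34 and high CD16/32 among live cells with the same Lin, cKit and Sca1 status, outside the BMCP gate. No treatment or altered allele is named for either population.

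Filtering kept 89 BMCP with 84242320 counts (96129 to 2416630 per cell) and 41 GMP with 55520835 counts (130191 to 3688848 per cell). No label ties a cell to a mouse, so each population is 1 sample, no difference between them could be tested, and the 95% limits given in brackets cover counting error only. The mast cell genes Gzmb and Cpa3 stood at 6516 and 5612 CPM in BMCP, against 1.03 and 883 CPM in GMP. The granule genes Mpo and Elane stood at 14.6 and 0.962 CPM in BMCP, against 31492 and 7307 CPM in GMP. Of 11 listed mast cell genes, 5 reached 1 CPM in either population. The proteases Mcpt2 and Mcpt4 and the receptor Mrgprb1 had no read in BMCP. Among the 5, the tryptase Tpsb2 stood at 11.8 CPM in BMCP and at 0.0359 CPM without BMCP 36. BMCP held 7.48 gene counts per ERCC spike-in count, against 13.7 in GMP.

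Both kinases and 3 other members stood at least 2-fold higher in BMCP: Jak1, Jak2, Stat6, Socs1 and Socs2. Among 14554 genes with at least 1 CPM in either population, 25.8% stood at least 2-fold higher in BMCP and 21% at least 2-fold lower, on the log2(CPM + 1) scale of reads summed over cells. No member was at least 2-fold lower. The median log2 ratio of BMCP over GMP was 0.83 over the 10 members, which ran between -0.69 for Socs3 and 5.46 for Socs2, and 0.04 over all 14554 genes. With spike-in reads as the total, the median of all genes moved to -0.78. Of all genes 14.4% then stood at least 2-fold higher in BMCP and 42.7% at least 2-fold lower, so that 25.2% of the called genes were higher, against 55.1% with gene counts as the total. On that scale 3 members stayed at least 2-fold higher (Jak2, Socs1 and Socs2), Jak1 was at 0.39 and Stat6 at 0.25. Stat3, Stat5b and Cish turned from above 0 to -0.55, -0.32 and -0.30. Set against the shifted median, 5 members were at least 2-fold higher on both scales. The share of all genes past that shifted mark is not given here, so no result is read from this count.

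**Figure D1:**
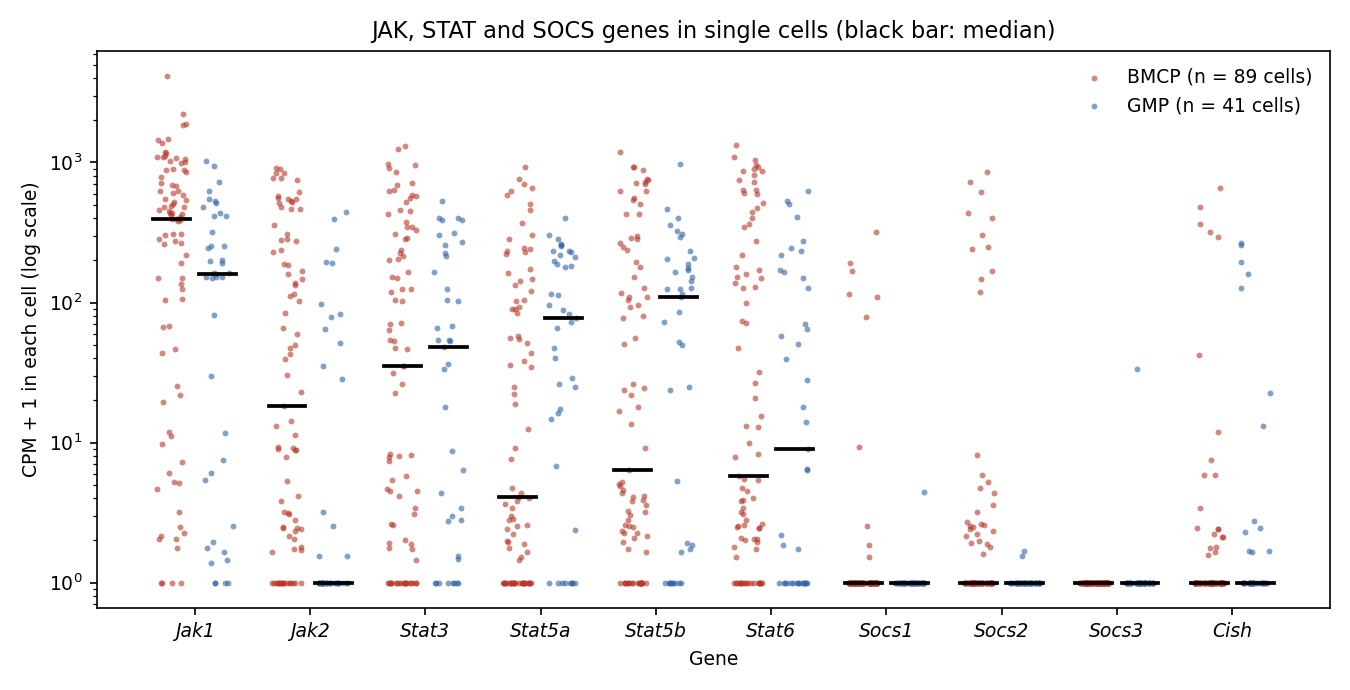
CPM plus 1 on a log axis in each kept cell (points) for the 10 genes, with 89 BMCP in red left of 41 GMP in blue; black bars are medians over cells. Jak1 has the highest medians, 394 CPM in BMCP against 159 CPM in GMP, while Socs1, Socs2, Socs3 and Cish have medians of 0 in both populations and a few high cells.

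Jak1 (chr4:101152367-101265282, minus strand, mm10), a kinase that serves the common gamma chain, interferon and IL-6 type receptors, was the most abundant member per length in both populations. Its level per cell had a lowest value of 0, a median of 394 and a highest value of 4142 CPM in BMCP, against 0, 159 and 1019 CPM in GMP. The ranges overlapped over the whole span of the GMP values. Summed over cells it stood at 491 CPM (486 to 496) in BMCP against 204 CPM (200.3 to 208) in GMP, a 2.41-fold difference (2.36 to 2.46). After thinning each cell to 200000 reads, which left 86 BMCP and 40 GMP, 2 or more Jak1 reads were found in 73 BMCP (84.9%, 75.5 to 91.7) and 28 GMP (70%, 53.5 to 83.4). The ratio held on each side of the cell numbers: BMCP numbered 1 to 47 stood at 547 CPM and those numbered 48 to 94 at 457 CPM. These number ranges are blocks in the layout of the table, the labels do not describe them, and all GMP lie in 1 block, so a block effect and a population effect cannot be told apart.

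Jak2 (chr19:29251828-29313080, plus strand), the kinase of the erythropoietin, IL-3, GM-CSF and IL-5 receptors, had the largest ratio among the 6 members of the kinase and STAT classes. Per cell it ran over 0, 17.3 and 909 CPM (lowest, median, highest) in BMCP and over 0, 0 and 440 CPM in GMP. No Jak2 read was counted in 17 of 89 BMCP and 25 of 41 GMP. Summed, it reached 197 CPM (194 to 199.6) in BMCP against 37.3 CPM (35.7 to 39) in GMP, 5.27-fold (5.03 to 5.51). GMP 33 held 27.8% of the GMP reads, and without it GMP stood at 27.6 CPM. At 2 or more thinned reads Jak2 was seen in 47 of 86 BMCP (54.7%, 43.5 to 65.4) and 12 of 40 GMP (30%, 16.6 to 46.5). The level was 192 CPM in BMCP 1 to 47 and 199 CPM in BMCP 48 to 94.

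The kinases were often seen in the same BMCP. Jak1 and Jak2 were both detected in 43 of 86 BMCP, where 39.9 would follow from independent detection, and in 5 of 40 GMP, where 8.40 would. At least 1 of them was seen in 77 of 86 BMCP and 35 of 40 GMP. Neither difference from independence was tested, and reads of a weakly expressed gene drop out of single cells by sampling.

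The summed levels of Stat3, Stat5a and Stat5b were closer together in the populations than those of the kinases. Stat6, at 2.18-fold, was near Jak1 at 2.41-fold. For Stat3, Stat5b and Stat6, medians over cells ran against the sums. Stat3 (chr11:100885098-100939540, minus strand), the transcription factor downstream of IL-6 and granulocyte colony-stimulating factor, ran over 0, 34.1 and 1321 CPM per cell in BMCP against 0, 46.9 and 528 CPM in GMP. Summed, it stood at 168 CPM (165 to 170) in BMCP against 134 CPM (131 to 137) in GMP, a log2 ratio of 0.32. Detection was nearly level, with 50 of 86 BMCP (58.1%, 47.0 to 68.7) and 24 of 40 GMP (60%, 43.3 to 75.1). Both blocks of BMCP numbers gave a log2 ratio of 0.32.

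Stat5a and Stat5b lie side by side on chromosome 11, and their proteins carry the signals of IL-3, GM-CSF, erythropoietin and thrombopoietin. Their reads are partly inseparable. The coding sequences in GENCODE vM21 aligned over 2291 bases with 90.8% identity, and the longest identical run was 324 bases. Of all 50-base windows of each gene's transcripts, the length of the sequenced reads, 8.21% for Stat5a and 11% for Stat5b occur in the other gene. A typical 50-base window differs at a few bases, as at coding bases 163 to 212, shown 5′ to 3′ on the coding strand with the differing bases in capitals:
Stat5a: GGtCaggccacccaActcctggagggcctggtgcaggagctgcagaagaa
Stat5b: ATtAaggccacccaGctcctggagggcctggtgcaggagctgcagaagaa

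Stat5a (chr11:100859351-100885169, plus strand) was the member whose summed levels were nearest in the 2 populations. Per cell it ran over 0, 3.07 and 935 CPM in BMCP against 0, 76.2 and 402 CPM in GMP. Its sum was 108 CPM (106 to 110.1) in BMCP against 116 CPM (113 to 119) in GMP, a log2 ratio of -0.10. The spreads differed more than the sums, with a lower median and a higher maximum in BMCP. It was detected in 41 of 86 BMCP (47.7%, 36.8 to 58.7) and 29 of 40 GMP (72.5%, 56.1 to 85.4). BMCP 1 to 47 were at 79.6 CPM and BMCP 48 to 94 at 125 CPM, so the log2 ratio to GMP was -0.54 and 0.11 in those blocks. Stat5a overlaps Stat3 by 72 bases at the gene ends on opposite strands, and the protocol as described does not mark strand.

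Stat5b (chr11:100780731-100850724, minus strand) repeated this spread with a somewhat higher sum in BMCP. Per cell it covered 0, 5.38 and 1183 CPM in BMCP against 0, 109 and 976.5 CPM in GMP. The sums were 179 CPM (176 to 182) in BMCP against 122 CPM (119 to 125) in GMP, a log2 ratio of 0.55. Detection went the other way, with 45 of 86 BMCP (52.3%, 41.3 to 63.2) and 27 of 40 GMP (67.5%, 50.9 to 81.4), so no order is read from the shares of Stat5a or Stat5b. At least 1 of this pair was seen in 68 of 86 BMCP (79.1%, 69 to 87.1) and 37 of 40 GMP (92.5%, 79.6 to 98.4). Both together were found in 18 BMCP and 19 GMP.

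Stat6 (chr10:127642986-127660957, plus strand), the transcription factor of IL-4 and IL-13 signalling, was the STAT with the highest BMCP level per length. Per cell it ran over 0, 4.78 and 1343 CPM in BMCP against 0, 8.04 and 626 CPM in GMP. Summed, it stood at 192 CPM (189 to 195) in BMCP against 88 CPM (85.6 to 90.5) in GMP, 2.18-fold (2.11 to 2.25). The shares of positive cells did not go with this difference: 41 of 86 BMCP (47.7%) and 20 of 40 GMP (50.0%) had 2 or more reads. Among the cells with 2 or more reads the median was 217 CPM in BMCP against 156 CPM in GMP. The 2-fold mark was missed in several settings: the log2 ratio was 1.12 with all kept cells, 0.98 without BMCP 55, 0.91 with thinned reads, and 0.62 and 1.35 with BMCP 1 to 47 and BMCP 48 to 94.

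**Figure D2:**
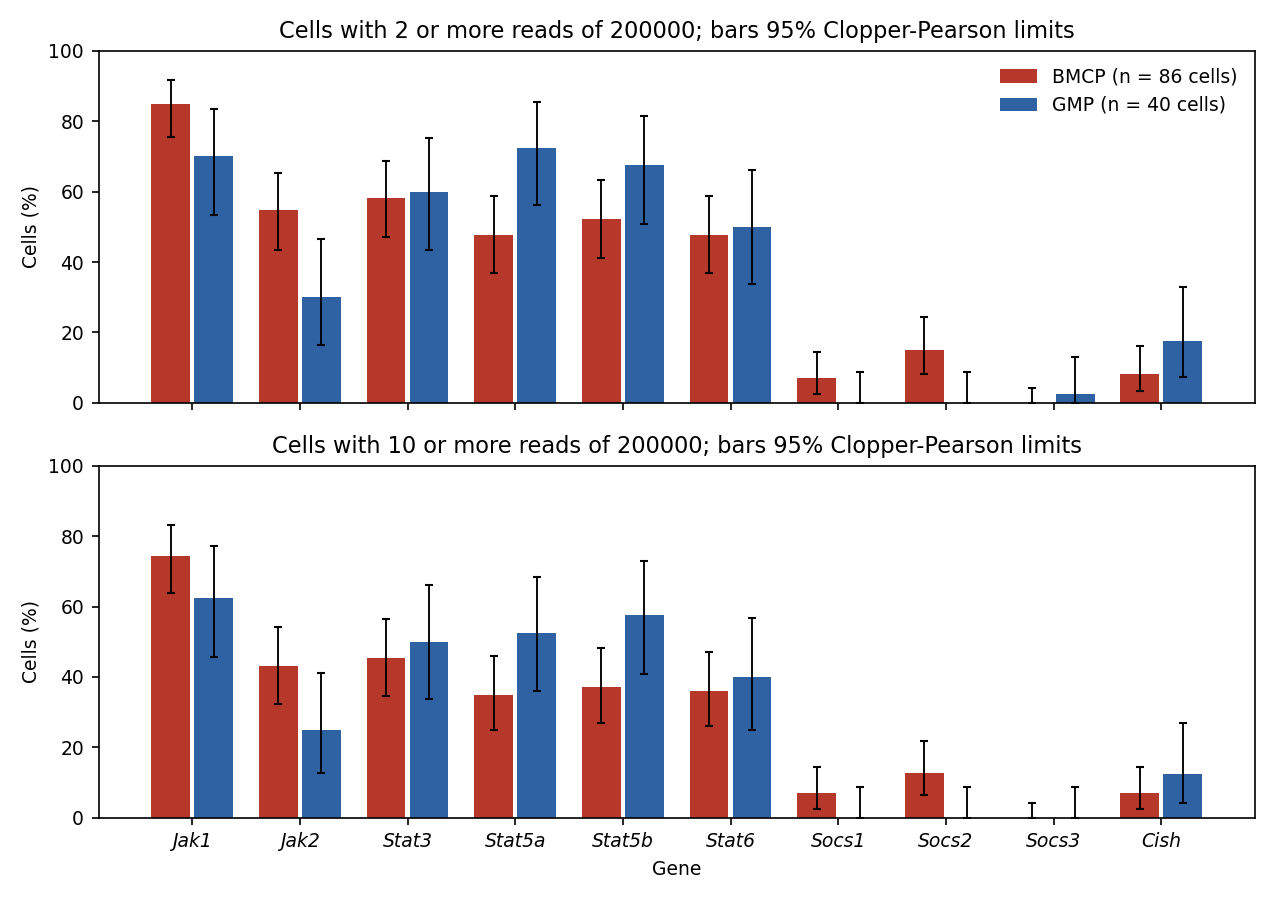
Percent of cells (y axis) with 2 or more reads (upper panel) and 10 or more reads (lower panel) of each gene after thinning to 200000 reads, BMCP (86 cells, red) left of GMP (40 cells, blue); error bars are 95% Clopper-Pearson limits. Jak2 is seen in 54.7% of BMCP and 30% of GMP, while the bars of Stat5a and Stat5b are lower in BMCP, and Socs1 and Socs2 have no GMP bar.

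The inhibitors were sparse, and their sums rested on few cells. Socs2 (chr10:95385362-95417180, minus strand), a brake on growth hormone and STAT5 signalling, had the largest ratio of the 10 members. No read was counted in 57 of 89 BMCP, the median was 0, and the highest cell, BMCP 18, stood at 860 CPM. In GMP the highest cell had 0.681 CPM, and 2 reads were counted over all 41 cells. The sums were 44.6 CPM (43.1 to 46) in BMCP against 0.0360 CPM (0.00436 to 0.130) in GMP, a ratio of 1237 (342 to 10216). At 2 or more reads it was found in 13 of 86 BMCP (15.1%, 8.30 to 24.5), and 11 of them had 10 or more. None of 40 GMP reached 2 reads, with an upper limit of 8.81%. The level was 92 CPM in BMCP 1 to 47 and 15.9 CPM in BMCP 48 to 94, so the amount differed between the blocks while both stood above GMP. Socs2 shares 4.19% of its 50-base windows with the pseudogene Gm9847.

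Socs1 (chr16:10782240-10785536, minus strand), the inhibitor best known for restraining interferon gamma signalling, was seen in few BMCP at this depth. At 2 or more reads it was found in 6 of 86 BMCP (6.98%, 2.60 to 14.6), and all 6 also passed 10 reads. Their levels were 78, 108, 167, 191, 115 and 320 CPM in BMCP 4, 34, 41, 50, 64 and 83. Its sum was 12.9 CPM (12.1 to 13.7) in BMCP against 0.0901 CPM (0.0292 to 0.210) in GMP, where all 5 reads came from GMP 24. BMCP 83 held 44.7% of the BMCP reads, and 7.25 CPM remained without it. The level was 3.31 CPM in BMCP 1 to 47 and 18.7 CPM in BMCP 48 to 94.

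No BMCP had 2 or more reads of both Socs1 and Socs2, where 0.907 cells would follow from independent detection, so the absence of shared cells carries little information.

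Cish (chr9:107296026-107302784, plus strand), a classical STAT5 target that limits IL-2 and IL-3 receptor signalling, had overlapping levels in the populations. It had no read in 68 of 89 BMCP and 28 of 41 GMP. The highest cells were BMCP 93 at 653 CPM and GMP 30 at 264 CPM. The sums of 30.2 CPM (29.1 to 31.4) in BMCP against 20.6 CPM (19.4 to 21.8) in GMP gave a log2 ratio of 0.53. Single cells moved this value. GMP 30 held 58.4% of the GMP reads, and without it GMP stood at 8.96 CPM and the log2 ratio at 1.65. The ratio was -0.81 with BMCP 1 to 47 and 0.98 with BMCP 48 to 94, and -0.04 when the mean of the cells' CPM replaced the sum. Detection was 7 of 86 BMCP (8.14%, 3.34 to 16.1) and 7 of 40 GMP (17.5%, 7.34 to 32.8). GMP 30 also carried most of the GMP reads of Gata1, an erythroid, megakaryocyte and mast cell factor, which stood at 94.3 CPM in GMP and 28.3 CPM without that cell; whether this bears on Cish was not tested. On the opposite strand Cish overlaps the processed pseudogene Gm17040 and the antisense gene Gm17041. They had 0 reads each in BMCP, against 12 and 0 in GMP. Of the 50-base windows of Cish, 9.35% occur in another gene on either strand, and 5.89% in Gm17041. Whether Cish reads there were set aside as ambiguous was not tested.

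Socs3 (chr11:117966079-117970047, minus strand), the inhibitor of IL-6 type and granulocyte colony-stimulating factor receptors, had no read in any of the 89 BMCP. In GMP its 34 reads all came from GMP 10, at 32.5 CPM in that cell, and 0.612 CPM (0.424 to 0.856) over the population. Over a floor of 3 counts for the BMCP population, Socs3 was at least 17.2-fold lower in BMCP than in GMP. That value rests on 1 cell, without which neither population had a read.

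Promoter windows were searched for STAT motifs, and Socs3 is shown because its window held a match. RefSeq (GRCm38.p6) gave 11 windows of the 250 bases before a gene start for 9 of the 10 members; Socs2 was not searched. The spaced palindrome TTCNNNGAA, the general STAT motif, was searched, together with the form favoured by STAT6, whose spacer is 1 base longer. Both read the same on either strand. TTCNNNGAA occurred in 1 of the 11 windows, in Socs3, and the longer form in 0. Over all 32851 promoter windows of that length, 7.02% held the first motif and 5.85% the second. The match TTCTTAGAA lies 154 to 146 bases before the start and is in capitals in the window chr11:117969367-117969616, read 5′ to 3′ on the minus strand. The window precedes the RefSeq start and lies within the wider GENCODE span given above, which takes in a transcript that begins further upstream:
Socs3 promoter: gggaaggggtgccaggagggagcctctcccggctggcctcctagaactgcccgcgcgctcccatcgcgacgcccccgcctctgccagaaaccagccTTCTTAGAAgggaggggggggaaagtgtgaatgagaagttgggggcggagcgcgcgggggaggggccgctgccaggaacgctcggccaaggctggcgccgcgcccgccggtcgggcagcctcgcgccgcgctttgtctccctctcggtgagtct
A match of letters is no measure of binding, and a window without a match says nothing of STAT binding elsewhere in the gene.

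**Figure D3:**
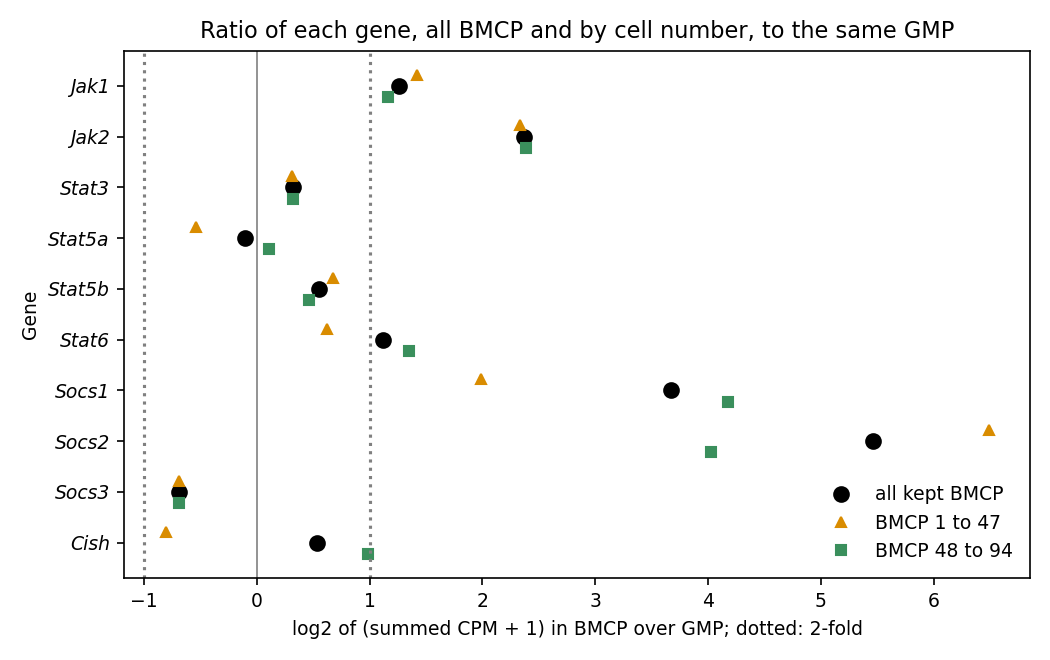
Ratio of BMCP over GMP as log2 of (CPM + 1) from summed reads (x axis) for each gene (y axis), for all kept BMCP (black), BMCP 1 to 47 (orange) and BMCP 48 to 94 (green), each over the same 41 GMP; dotted lines mark 2-fold. Jak1, Jak2, Socs1 and Socs2 lie right of the upper dotted line in both blocks, Stat6 only in the green one (0.62 and 1.35), and Cish changes side (-0.81 and 0.98).

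Set per kilobase of exon, the order of levels in BMCP was Jak1 at 67.9, Stat6 at 43.6, Jak2 at 39.1, Stat5b at 32.3, Stat3 at 17.6 and Stat5a at 15.1 CPM per kb. Cish at 4.71, Socs2 at 4.67 and Socs1 at 4.43 CPM per kb followed and were within counting error of their neighbours, and Socs3 was last with no read. In GMP Jak1 led at 28.2 CPM per kb, before Stat5b at 22.1, Stat6 at 20.0, Stat5a at 16.2, Stat3 at 14.1 and Jak2 at 7.42 CPM per kb. Jak2 thus stood above Stat3, Stat5a and Stat5b in BMCP and below all 4 STAT genes in GMP. The inhibitors closed the GMP order, with Cish at 3.21, Socs3 at 0.212, Socs1 at 0.0310 and Socs2 at 0.00378 CPM per kb. With the longest transcript as the length, Stat5a moved to second place in GMP and Socs2 passed Cish in BMCP. The spread between cells was wide for each gene: the SD over cells exceeded the mean of the cells for the 9 members with reads in BMCP, for example 624 against 518 CPM for Jak1.

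Cells held several members at once. A median of 4 of the 10 members was detected per cell in both populations, with a range of 0 to 7 in BMCP against 2 to 7 in GMP. None of the 4 STAT members was seen in 5 of 86 BMCP, against 0 of 40 GMP. At least 1 inhibitor was seen in 25 of 86 BMCP (29.1%, 19.8 to 39.9) and 8 of 40 GMP (20.0%, 9.05 to 35.6). Of 36 pairs of members detected in BMCP, 31 were found together in a number of BMCP within 3 of that under independent detection. The exceptions above it were Jak1 with Jak2 and Stat3 with Stat5a (28 cells, 23.8 under independence). Those below it were Stat5a with Stat5b (18, 21.5 under independence), Stat6 with Cish (0, 3.34) and Stat3 with Socs2 (3, 7.56), and no pair was tested. A deficit of over 3 cells was out of reach for pairs expected in fewer. Examples are Socs1 with Cish (0.488) and Socs1 with Socs2 (0.907), so no result is read from the 31.

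The Socs2 reads were gathered in a small set of BMCP. Cells were clustered on 1000 variable genes with the 10 members left out, and the clusters are called by number. Cluster 1 held 38 GMP, cluster 2 held 27 BMCP with 3 GMP, cluster 3 held 8 BMCP and cluster 4 held 54 BMCP. The 3 GMP of cluster 2 were GMP 8, GMP 20 and GMP 24, and Mpo was at most 1943 CPM in that cluster. Over all kept GMP the Mpo median was 29709 CPM. GMP 24 held the highest GMP values of Jak1, Socs1 and Socs2, and GMP 20 those of Stat5a, Stat5b and Stat6. Cluster 3, led by the tryptase Tpsg1 and the chemokine Ccl2, had 73% of all Socs2 reads. In its 8 cells Socs2 had a lowest value of 0, a median of 368 and a highest value of 860 CPM, against 0, 0 and 400 CPM in the other 81 BMCP. The sums were 434 CPM (418 to 450.3) in the 8 cells against 13 CPM (12.2 to 13.8) in the others, or 8.53 CPM in the others without BMCP 10. It was detected in 6 of the 8 and in 7 of 78 other BMCP. The cluster followed in each other setting was the one with the highest Socs2, so its high level there is no separate check. With 6 clusters it held the same 8 cells. It held 10 cells on 500 variable genes, 9 on 2000 and 12 on 20 components, at 302, 394 and 326 CPM. Of the 8 cells, 7, 7 and 8 were among them. The other BMCP then stood at 19.7, 11.9 and 9.25 CPM.

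Genes open to the clustering describe these 8 cells and are no result. Among protease genes, Cma1 stood at 10641 CPM in cluster 3 against 1110 CPM in cluster 4, Mcpt8 at 4855 against 491 CPM and Cpa3 at 22046 against 5399 CPM, while Gzmb stood at 6626 CPM in cluster 3 against 7585 CPM in cluster 4. Il9r, the receptor chain for IL-9, was at 289 CPM (276 to 303) in them against 20.4 CPM (19.4 to 21.4) in the other BMCP. Over all thinned BMCP, Socs2 and Il9r were each detected in 13 cells and both in 7, where 1.97 would follow from independent detection. This pair was chosen after its values were seen. The shared cells include BMCP 3, 18, 33, 36 and 52 of cluster 3, so the overlap is no separate check. It was not particular to Il9r. At 10 or more reads Socs2 was found with Il9r in 7 cells (1.41 under independence), with Cma1 in 10 (3.45) and with Mcpt8 in 9 (2.56). Of the 8 cells, 7 are numbered 1 to 47, and their median depth was 740296.5 counts against 918848 in the other BMCP, so the part of block and depth in the Socs2 difference was not tested.

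Of the other members, Jak1 stood at 442 CPM in the 8 cells and 495 CPM in the others. Jak2 stood at 95.7 CPM (88.2 to 104) in the 8 cells against 205 CPM (202 to 208) in the other BMCP, with medians over cells of 30.4 CPM in the 8 and 17.3 CPM in the others, which run the other way. Without BMCP 36 Jak2 stood at 53 CPM in the remaining cells of the cluster. Stat3 was at 3.80 CPM (2.43 to 5.65) in the 8 cells, against 181 CPM (178 to 184) in the other BMCP, and reached 10 reads in 0 of 8 against 39 of 78. Without BMCP 40 it stood at 1.5 CPM in the cluster. That Stat3 value depended on which cells were grouped: it was 1.94 CPM with 2000 variable genes, but 120.2 CPM with 500 and 121 CPM with 20 components.

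**Figure D4:**
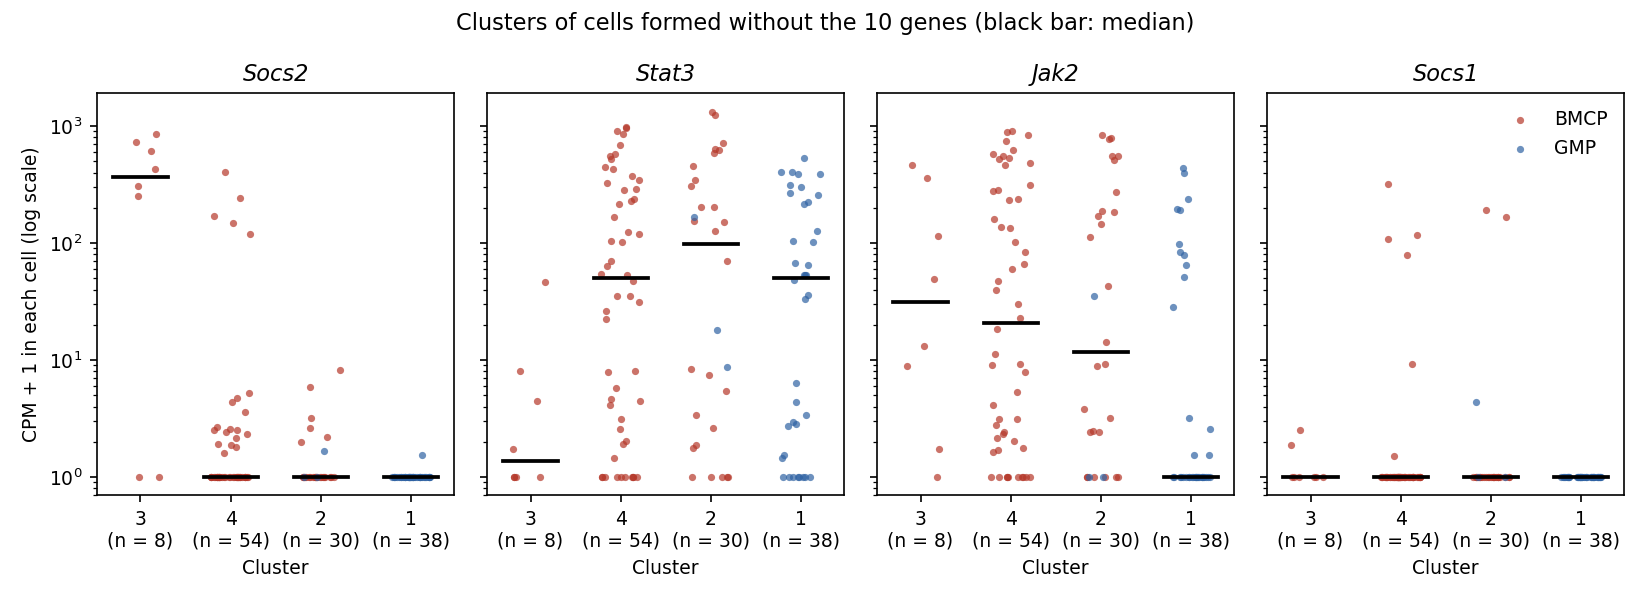
CPM plus 1 on a log axis in each cell for Socs2, Stat3, Jak2 and Socs1, by cluster (x axis; clusters 3 and 4 hold BMCP, cluster 2 holds 27 BMCP and 3 GMP, cluster 1 holds GMP); BMCP are red, GMP blue, and black bars are medians. Socs2 lies at a median of 368 CPM in the 8 cells of cluster 3 and at 0 in the other clusters, while Stat3 is near 0 in cluster 3.

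The 6 cells with Socs1 lay outside that cluster, in clusters 2 and 4. BMCP 50 and BMCP 41, 2 of the 6, ranked first and second of 89 BMCP in the summed level of 16 interferon-induced genes, at 13008 and 11332 CPM against a median of 303 CPM. The other 4 ranked 5, 16, 49 and 62. Irf1, 1 of the 16 genes, stood at 5802 CPM in BMCP 41 and at 347 CPM in BMCP 50. The 2 highest sums were thus not made up alike. Stat2, a STAT of type I interferon signalling, stood at 1793 CPM in BMCP 41 and 705 CPM in BMCP 50. In BMCP 4 it was at 6.78 CPM, and in BMCP 34, 64 and 83 at 0 CPM. A link of Socs1 with these genes was noticed in the values and was not tested. Without BMCP 41 and BMCP 50, Socs1 stood at 7.69 CPM in BMCP, and Stat2 at 45.3 CPM against 68.6 CPM with them.

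The remaining family members divided by class. Jak3, which pairs with the common gamma chain, stood at 96.6 CPM (94.5 to 98.7) in BMCP against 27.3 CPM (25.9 to 28.7) in GMP, and Tyk2, a kinase of interferon and IL-12 receptors, at 121 CPM in BMCP against 43.8 CPM in GMP. With Jak1 and Jak2, all 4 Janus kinases thus had sums at least 2-fold higher in BMCP with gene counts as the total. This held for 25.8% of all genes. With spike-in reads as the total, Jak2 stayed at least 2-fold higher. The log2 ratios were then 0.93 for Jak3, 0.58 for Tyk2 and 0.39 for Jak1. Shares of positive cells did not go with the sums of Jak3 and Tyk2. At 2 or more thinned reads, Jak3 was seen in 25 of 86 BMCP (29.1%) and 14 of 40 GMP (35%). Tyk2 was seen in 34 of 86 BMCP (39.5%) and 18 of 40 GMP (45%). Medians over cells were nearly equal. That of Jak3 was 0.524 CPM among BMCP against 0.560 CPM among GMP, and that of Tyk2 was 2.64 against 2.63 CPM. Of the other STATs, Stat2 was at 68.6 CPM in BMCP against 41.7 CPM in GMP, a log2 ratio of 0.70. That ratio was 1.01 without GMP 46, and 0.12 without BMCP 41 and BMCP 50. Stat4 was at 26.8 CPM in BMCP against 31.4 CPM in GMP. With spike-in reads as the total Stat2 turned to -0.15, while Stat4 was at -1.05.

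The other SOCS genes were divided. Socs7 was higher, at 50.8 CPM in BMCP against 15.1 CPM in GMP, and without GMP 15 the GMP level was 6.48 CPM. Socs5 was lower, at 11.4 CPM in BMCP against 30.3 CPM in GMP, and without BMCP 11 the BMCP level was 4.75 CPM. Socs4 at 47.0 CPM in BMCP against 82.6 CPM in GMP and Socs6 at 25.1 CPM in BMCP against 36.1 CPM in GMP were under 2-fold, though Socs4 passed it, with a log2 ratio of -1.26, without BMCP 53. These 4 genes had a median log2 ratio of -0.66, and of -1.49 with spike-in reads as the total, where Socs7 was at 0.84 and the other 3 were at least 2-fold lower.

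Of 12 other negative regulators, 6 were at least 2-fold higher in BMCP and 1 lower (all genes 25.8% and 21%), with a median log2 ratio of 0.79. With spike-in reads as the total, 2 were higher and 1 lower (all genes 14.4% and 42.7%), with a median of -0.06. The tyrosine phosphatases Ptprc (CD45) at 701 CPM in BMCP against 233 CPM in GMP, Ptpn2 at 189 CPM in BMCP against 72.4 CPM in GMP and Ptpn1 at 137 CPM in BMCP against 65 CPM in GMP were among them. So were 2 PIAS proteins, SUMO ligases that bind STATs, Pias3 at 72.2 CPM in BMCP against 14.6 CPM in GMP and Pias4 at 92.2 CPM in BMCP against 30.5 CPM in GMP, and the ubiquitin ligase Cblb at 74 CPM in BMCP against 9.62 CPM in GMP. Pias2 was lower, at 24.5 CPM in BMCP against 59 CPM in GMP. Some of these changed with a single cell: without BMCP 57 the log2 ratio of Ptpn1 was 0.99, without GMP 11 that of Pias2 was -0.93, and without GMP 30 and GMP 31 the GMP levels of Cblb and Pias3 were 4.51 and 8.80 CPM.

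Among 20 measured receptor chains, 8 were higher and 4 lower by 2-fold (all genes 25.8% and 21%), with a median log2 ratio of 0.05. By spike-in reads, 5 were higher and 7 lower (all genes 14.4% and 42.7%), with a median of -0.72. The common gamma chain Il2rg stood at 848 CPM (842 to 854) in BMCP against 79.6 CPM (77.3 to 82) in GMP. Csf2rb, the common beta chain, was at 507 CPM in BMCP against 147 CPM in GMP, and Csf2rb2, the mouse IL-3 receptor beta chain, at 373 CPM in BMCP against 8.88 CPM in GMP, and without GMP 20 the GMP level was 5.36 CPM; reads of this near-identical pair may be split between them. Il9r was at 40.5 CPM in BMCP against 0.0901 CPM in GMP. Il4ra at 91.3 CPM in BMCP against 40.3 CPM in GMP and Ifnar1 at 142 CPM in BMCP against 70.5 CPM in GMP passed 2-fold with all cells, and had log2 ratios of 0.89 without BMCP 36 and 0.88 without BMCP 83. The G-CSF receptor Csf3r was at 0.0356 CPM in BMCP, from 3 reads, and 105 CPM in GMP, and the IL-6 receptor Il6ra at 0.0831 CPM in BMCP against 57 CPM in GMP. Ifnar2 was at 59.7 CPM in BMCP against 127 CPM in GMP, with a log2 ratio of -0.92 without GMP 27.

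Genes known as STAT targets were not all on the same side. Of 11 measured STAT5-linked genes, 3 were at least 2-fold higher in BMCP (Pim2, Bcl2l1 and Osm) and 3 lower, shares near the 25.8% and 21% of all genes, with a median log2 ratio of 0.14. With spike-in reads as the total, 1 was higher (Pim2) and 3 lower (all genes 14.4% and 42.7%), with a median of -0.66. The cytokine Osm was at 100.4 CPM in BMCP against 28.2 CPM in GMP, and without GMP 47 the GMP level was 14.9 CPM. The kinase Pim2 was at 36.1 CPM in BMCP against 7.92 CPM in GMP, and without GMP 7 the GMP level was 3.69 CPM. The survival gene Bcl2l1 was at 34 CPM in BMCP against 12.2 CPM in GMP, with a log2 ratio of 0.89 without BMCP 61 and a GMP level of 4.89 CPM without GMP 45. Myc was at 250 CPM in BMCP against 709 CPM in GMP, and the cyclin Ccnd1 at 4.77 CPM in BMCP against 21.1 CPM in GMP, and these were 1.08 CPM in BMCP without BMCP 73 and 13.4 CPM in GMP without GMP 6.

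Of 8 STAT3-linked genes, 2 were higher and 3 lower (all genes 25.8% and 21%), with a median log2 ratio of 0.01. With spike-in reads as the total the counts were again 2 and 3 (all genes 14.4% and 42.7%), with a median of -0.74. The immediate early genes Fos and Junb were at 1223 and 394 CPM in BMCP, against 172 and 39.9 CPM in GMP, where Fos was at 87.7 CPM without GMP 3. Cebpd, a factor of granulocyte differentiation, was at 5.96 CPM in BMCP against 89.2 CPM in GMP, and without BMCP 61 the BMCP level was 3.13 CPM. Birc5, a mitotic survival gene, was at 12.1 CPM in BMCP against 72.6 CPM in GMP, and without BMCP 29 the BMCP level was 6.19 CPM. Of 8 STAT6-linked genes 3 reached 1 CPM, with Il4ra higher and 2 lower in BMCP, and with spike-in reads as the total 0 were higher and 2 lower. Gfi1 was lower, at 12.8 CPM in BMCP against 56.6 CPM in GMP, and without BMCP 74 the BMCP level was 6.59 CPM. The other was Mrc1, named after its values were seen, with a log2 ratio of -4.10, or -0.17 without GMP 29.

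Of 15 measured interferon-induced genes, 7 were higher and 3 lower (all genes 25.8% and 21%), with a median log2 ratio of 0.76. By spike-in reads, 5 were higher and 5 lower (all genes 14.4% and 42.7%), with a median of -0.09. Without BMCP 50 Ifit1, Ifit3 and Mx1 were at 0.183, 0.0974 and 0.134 CPM in BMCP, against 40.8, 21.4 and 34.9 CPM with it. Their log2 ratios were then -2.26, 0.13 and 0.18, against 2.88, 4.48 and 5.17 with it. Those of Irf7, Isg15 and Bst2 were 0.93, -1.46 and -1.02, against 1.83, 0.55 and -0.56. The counts of higher and lower genes thus depended on this cell. With BMCP 50 kept, the log2 ratio of Ifit1 was 5.36 without GMP 42, and that of Isg15 was 2.13 without GMP 24. Rsad2 at 20.5 CPM and Usp18 at 89.4 CPM without BMCP 50 still stood above the 0.414 and 10.6 CPM of GMP. Usp18 was at 6.54 CPM in GMP without GMP 18. Gbp2 was at 80.1 CPM in BMCP against 26.4 CPM in GMP, and without GMP 21 the GMP level was 13.2 CPM. Gbp3 was lower, at 2.11 CPM in BMCP (0.181 CPM with BMCP 29 left out), against 77.2 CPM in GMP. Oas1a was at 14.3 CPM in BMCP against 31.2 CPM in GMP, with a log2 ratio of -0.74 without GMP 47.

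**Figure D5:**
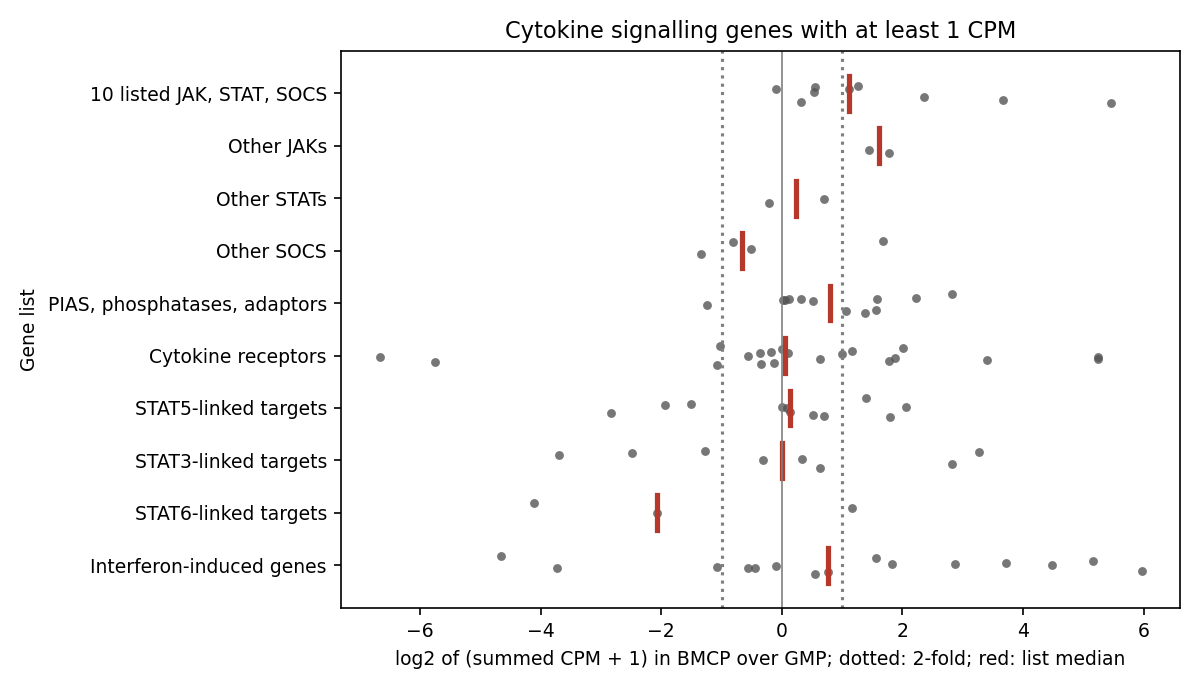
Ratio of BMCP over GMP as log2 of (CPM + 1) from summed reads (x axis) for genes with at least 1 CPM in either population (dots), by list (y axis); red bars are list medians and dotted lines mark 2-fold. The medians lie at 1.12 for the 9 measured members and 1.62 for the other JAKs, and at -0.66 for the other SOCS genes.

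The search for genes that vary with a member across the 89 BMCP covered the 6 kinase and STAT members, each detected in at least 25% of thinned BMCP, and not the 4 inhibitors. For those 6, the 3 highest Spearman correlations per gene among 3815 genes lay between 0.32 and 0.42, for example 0.42 for Jak1 with Tet1, and in such sparse counts these are no finding.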

How the data were processed

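The file used holds unnormalized read counts for each gene in each cell, which the authors made with GSNAP and HTSeq 0.5.3p3 on mm10 and deposited, per the submitters' processing notes. For the gene annotation a release was not given in the sources used here. Per the labels' protocols, polyA RNA was amplified over 23 PCR cycles with ERCC spike-ins and read as single-end reads of 50 bases, with no molecular identifiers or strand marking described, so reads are not independent molecules. Reads with no gene, ambiguous reads and unaligned reads, at 17.6%, 3.77% and 30.4% of all rows' reads of the kept BMCP against 11.1%, 6.03% and 27.5% of the kept GMP, stayed out of every total.

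Symbols came from the table of gene names given with the reference, and coordinates and exon lengths from GENCODE vM21 on GRCm38, the assembly of mm10. A cell was kept with at least 50000 nuclear-encoded counts, 1000 genes, at most 10% mitochondrial counts and at most 50% spike-in reads, which left out 11 of 141 cells. Median depth was 893037 counts in BMCP and 1309887 in GMP, with 5440 and 7001 genes. Sorted single cells were not screened for doublets. Reads were summed per population and compared as log2(CPM + 1). Limits are exact Poisson, conditional binomial (ratios) and Clopper-Pearson (shares), all at 95%. Ward clustering into 4 clusters used 10 principal components of the 1000 most variable genes. The ratio, but not its limits, was tested on simulated counts. The members, lists and rules were chosen with earlier results of these data known. Named other genes were those at least 2-fold different with 20 CPM or more in the higher population, and other JAK, STAT and SOCS genes whatever their values; 1 gene under this rule is not reported here. Alternatives changed scaling, pseudocount, cell filter, depth, single cells, block, detection limit, length and clustering; the gene number and component alternatives were added after seeing the data. Software was pandas 2.3.3, numpy 2.4.6, scipy 1.17.1 and matplotlib 3.10.9 under Python 3.11.15.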

Additional observations from a re-analysis of the deposited data

How the results depend on the processing

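The count of members at least 2-fold higher in BMCP was 5 and fell to 3 with ERCC spike-in reads as the total, where the 10 members had a median log2 ratio of -0.02; it was 4 to 6 in the other settings. The count of members at least 2-fold lower was 0 and became 1, Socs3, with a pseudocount of 0.1 CPM. Over the 15 settings, Jak2, Socs1 and Socs2 stayed at least 2-fold higher in 15, Jak1 in 14 and Stat6 in 11. The log2 ratio ran between -0.81 and 1.65 for Cish, -0.96 and 0.11 for Stat5a, -0.55 and 0.80 for Stat3, and -0.32 and 0.69 for Stat5b. None of these 4 thus kept its direction in all 15 settings. The ratio was above 0 in 14 for Stat3 and for Stat5b, the exception being spike-in reads as the total. It was above 0 in 12 for Cish and in 2 for Stat5a. The cause of these shifts was not tested. Without thinning, the shares of BMCP with 2 or more reads were 68.5% for Jak2, 69.7% for Stat3, 65.2% for Stat5b and 64% for Stat6, above those at equal depth, while the shares of the inhibitors moved within their limits under each depth tried. The number of GMP limits their zeros: 0 of 40 allows a share of up to 8.81%. No paired analysis was possible because the cell numbers of BMCP and GMP only name cells and no test was made.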
